A study of Mus musculus with 12 samples.

Results

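The BCL2 family members described here are 10 genes whose products set the threshold for mitochondrial cell death and that lie outside the family's classical p53 targets. They were taken by gene symbol from a table of raw RNA-seq counts with 24421 symbols, and all 10 were among the 14810 genes with enough counts to be tested. They comprise the pro-survival genes Bcl2, Bcl2l1 (BCL-XL), Bcl2l2 (BCL-W) and Mcl1, the pore-forming effectors Bak1 and Bok, and the BH3-only genes Bid, Bad, Bcl2l11 (BIM) and Bmf. Bax, Bbc3 (PUMA) and Pmaip1 (NOXA), which p53 is known to activate, are not members and serve below only as a contrast.

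The libraries came from C57Bl/6 mouse embryos with a neural crest-specific alteration of Eftud2, which encodes a GTPase in the U5 particle of the spliceosome. The 12 libraries formed 4 groups of 3, namely heterozygous control embryos (Eftud2+/-) and homozygous mutant embryos (Eftud2-/-) at embryonic days 9.0 (E9.0) and 9.5 (E9.5). The controls thus carried 1 altered allele, and no wild-type embryos were among these libraries. The labels contradict each other on the tissue, which is called neural crest in one field, cranial ganglia in another and heads in the protocol. They name no Cre driver and give neither the somite numbers nor the number of embryos behind each library.

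Proteins of this family meet at the outer mitochondrial membrane. The pro-survival proteins hold BH3-only proteins and activated effectors in a groove on their surface, and a cell commits to death when free effectors assemble pores that release cytochrome c. BH3-only proteins are the sensors of the system, and several of them are regulated at the transcript level. In the head of the mid-gestation embryo, cranial neural crest is known for its sensitivity to p53-dependent death.

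All 10 proteins share the short helix called the BH3 domain, which is the part that fits into the groove. Its core is shown for 7 members, because the contrast between the guards that bind it and the sensors that carry it orders the results below. Each stretch holds 30 coding bases on the strand of the gene, read from GENCODE M21 (GRCm38, the assembly also called mm10). Capitals mark the codon of the conserved leucine, and then the codon of the small residue together with that of the invariant aspartate.
Bcl2 (chr1:106712578-106712607, minus strand, exon 1): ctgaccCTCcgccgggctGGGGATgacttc
Mcl1 (chr3:95659430-95659459, plus strand, exon 1): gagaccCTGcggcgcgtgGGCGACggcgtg
Bak1 (chr17:27022534-27022563, minus strand, exon 4): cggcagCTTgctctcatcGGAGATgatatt
Bid (chr6:120897292-120897321, minus strand, exon 4): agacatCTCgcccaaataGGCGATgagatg
Bad (chr19:6950786-6950815, plus strand, exon 3): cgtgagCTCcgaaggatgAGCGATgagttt
Bcl2l11 (chr2:128147144-128147173, plus strand, exon 3): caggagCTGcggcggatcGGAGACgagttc
Bmf (chr2:118545103-118545132, minus strand, exon 4): agaaagCTTcagtgtattGCAGACcagttc
The small residue before the aspartate is glycine in 8 of the 10 members, serine in Bad and alanine in Bmf. Bcl2l2, which is not shown, has a methionine codon in the place of the leucine. The motif was found in 26 of the 28 coding transcripts annotated as basic for these genes. It was absent from a Bcl2l11 transcript of 91 codons and a Bcl2l2 transcript of 79 codons. The table gives 1 count per gene, so a change in the use of such isoforms could not be seen in it.

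Between 13914543 and 31172708 counts stood behind each library. In replicate 1 of the heterozygous E9.0 group, 37.4% of counts belonged to the ribosomal RNA precursor Rn45s, a share of 4.40% to 16.2% elsewhere, so libraries were scaled by TMM, which sets each one by the bulk of its genes. Levels are given as CPM, the usual count relative to this scaled library size. Eftud2, the label check, was at 275, 279 and 302 CPM in heterozygous and 232, 235 and 236 CPM in homozygous libraries at E9.0. The E9.5 levels were 248 to 264 CPM and 221 to 226 CPM, so at both stages the genotypes were apart and ordered as labelled. Eftud2 fell by 0.29 on the log2 scale (SE 0.05) at E9.0 by edgeR (adjusted p = 0.0193), and its difference at E9.5 was -0.19 (SE 0.05, edgeR adjusted p = 0.0906). The E9.0 call was lost without heterozygous replicate 1 (edgeR adjusted p = 0.0645) and without homozygous replicate 1 (0.0601) or 3 (0.0713). It was also lost in 3 of 10 processing alternatives, the furthest being total counts, with a difference of -0.08 (edgeR adjusted p = 0.751). Neural crest markers (9 of 9 detected in every library) summed to 418 to 450 CPM in heterozygous and 366 to 387 CPM in homozygous libraries at E9.0, and to 265 to 334 and 255 to 310 CPM at E9.5. Ganglion neuron and neural progenitor markers were all detected as well, so each library held RNA of several cell types.

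Among the family members, Mcl1 stood far above the rest. To compare genes with each other, CPM were divided by the length of the gene's merged exons in kilobases. On this scale Mcl1, a short-lived guard against BIM and BAK1, averaged 60.4 CPM per kb in heterozygous E9.0 libraries, 62.4 in homozygous E9.0, 61.1 in heterozygous E9.5 and 60.2 in homozygous E9.5. It made up 73.2% to 78.8% of the summed length-scaled level of the 4 pro-survival members in single libraries. In no group did its libraries overlap with those of the next member.

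The next places on the length-scaled scale belonged to Bmf, Bak1, Bcl2l1 and Bok. Bak1, a constitutive effector on mitochondria, lay between 14.2 and 16.1 CPM per kb as a group mean. Bcl2l1, which guards against BAX and BAK1, lay between 10.1 and 10.9, and Bok, an effector that can act without BAX and BAK1, between 9.52 and 12.01. Bmf, a sensor tied to the cytoskeleton, averaged 14.4 and 13.3 CPM per kb in heterozygous and homozygous libraries at E9.0 and 10.1 and 9.30 at E9.5. Neighbours in this range overlapped in several groups: Bmf with Bak1 at E9.0 in both genotypes, and Bmf with Bok and Bok with Bcl2l1 in homozygous E9.0 and heterozygous E9.5 libraries.

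At the lower end stood Bcl2l11, Bcl2l2, Bid, Bad and Bcl2. Bcl2 itself, the founding pro-survival gene, was the lowest member on this scale at E9.0. It averaged 3.29 CPM per kb in heterozygous libraries, where it overlapped with Bad, and 3.23 in homozygous libraries. This place depends on the division by its 9157 bases of merged exons. In undivided CPM, Bcl2 averaged 30.2 in heterozygous E9.0 libraries. That was above Bcl2l2 (25.7), Bok (17.5), Bid (13.1) and Bad (9.16) and below all the other members. Bid, which caspase-8 cleaves to link death receptors to mitochondria, was the lowest at E9.5, with 2.62 and 2.96 CPM per kb. At E9.0 Bid and Bad overlapped in both genotypes, whereas at E9.5 Bad was 4 places above Bid in the order and did not overlap with it.

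**Figure D1:**
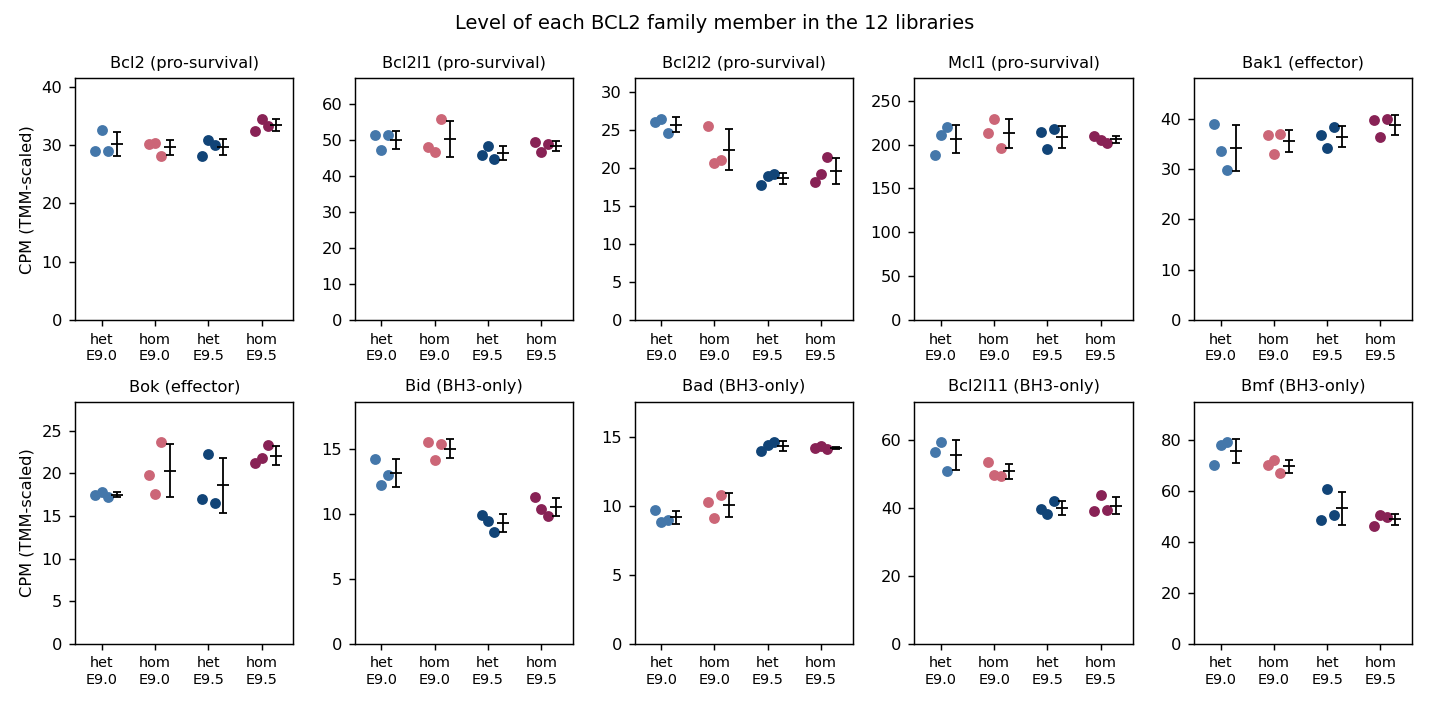
Level of each of the 10 members in CPM (TMM-scaled, linear axis from 0) in the 12 libraries, by genotype (het, heterozygous; hom, homozygous) and stage. Points are libraries and the bar beside them is the mean ± SD of 3. Bad stands higher, and Bid, Bcl2l11 and Bmf lower, in the E9.5 libraries, while the genotypes overlap in nearly every panel.

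The first question put to these genes was whether their transcripts differ between homozygous and heterozygous embryos, as might be asked of a mutant in which the study's title reports raised p53 activity. None of the 10 passed an adjusted p of 0.05 in edgeR's quasi-likelihood test at E9.0, and none at E9.5. Over all tested genes 0.587% passed at E9.0 and 1.89% at E9.5, so a count of 0 among 10 genes is near that background. At an unadjusted p under 0.05 the counts of members were 0 at E9.0 and 2 at E9.5 (Bcl2 and Bok), beside 1969 and 1984 of the 14810 genes tested, and DESeq2 also called 0 at each stage. The 95% intervals of the members' changes lay between -24.1% and 38.9% at E9.0 and between -18.2% and 40.1% at E9.5; these are the widest limits over the 10, and the interval of Mcl1 at E9.0, for one, was -6.97% to 14.6%. The p-values measure the spread between libraries, and whether these came from separate litters is not stated. Markers of cell types moved with genotype as well, counted here by an edgeR adjusted p under 0.05. At E9.5, 8 of 12 endothelial markers were called higher in homozygous libraries (sums of 347 to 390 CPM against 193 to 274 CPM). There 4 of 9 neural crest markers were called lower, and of 12 ganglion neuron markers 2 were called lower and 1 higher. At E9.0 1 neural crest marker was called lower, while the median log2 difference of the 9 was -0.19. Their part in the members' genotype values was not tested. In such bulk libraries fewer cells of one type and less RNA per cell cannot be told apart.

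Among the pro-survival genes, Bcl2 was at 29.0, 32.5 and 29.0 CPM in heterozygous and at 30.2, 30.4 and 28.2 CPM in homozygous libraries at E9.0. At E9.5 it was at 28.2, 30.8 and 30.0 CPM in heterozygous and at 32.5, 34.5 and 33.3 CPM in homozygous libraries. The genotypes overlapped at E9.0 and did not at E9.5, where all 3 homozygous libraries were above all 3 heterozygous ones. The log2 difference at E9.5 was 0.17 (SE 0.07), with an edgeR adjusted p of 0.289 and an exact two-sided permutation p of 0.1, the smallest that 3 against 3 libraries allow. Bcl2 was the only member whose genotypes did not overlap at E9.5, and at E9.0 there was none. Over all tested genes the genotypes did not overlap for 17.3% at E9.0 and 20.9% at E9.5.

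Mcl1 stood at 188, 211 and 220 CPM in heterozygous and 213, 230 and 196 CPM in homozygous libraries at E9.0. At E9.5 it stood at 214, 195 and 217 CPM against 210, 206 and 202 CPM. The genotypes overlapped at both stages, and the log2 differences were 0.05 (SE 0.07) and -0.02 (SE 0.07). Its 95% interval at E9.5 ran from -0.17 to 0.13 on the log2 scale. Bcl2l1 differed by 0.0058 (SE 0.07) at E9.0 and 0.06 (SE 0.07) at E9.5 on the same scale. Bcl2l2, a guard best known from testis and neurons, was at 26.0, 26.4 and 24.6 CPM against 25.5, 20.6 and 21.1 CPM at E9.0, a log2 difference of -0.20 (SE 0.09, edgeR adjusted p = 0.375).

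Of the effectors, Bok was at 17.5, 17.9 and 17.2 CPM in heterozygous and at 19.8, 17.6 and 23.6 CPM in homozygous libraries at E9.0. Its E9.5 levels were 17.0, 22.3 and 16.5 CPM against 21.2, 21.8 and 23.3 CPM. One heterozygous library, replicate 2, lay within the homozygous range at E9.5 while the other two lay below it. Averaged over both stages Bok was higher in homozygous libraries by 0.23 on the log2 scale (SE 0.08), with an edgeR adjusted p of 0.167. Without heterozygous E9.5 replicate 2 this average became 0.31 and passed the threshold (edgeR adjusted p = 0.0362). In the other 11 runs that each left out 1 library, and under the 9 other processing alternatives, it did not pass. Bak1 ranged from 29.8 to 40.0 CPM over all 12 libraries, with log2 differences of 0.06 (SE 0.09) at E9.0 and 0.09 (SE 0.09) at E9.5.

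Among the BH3-only genes, Bid was at 14.2, 12.2 and 13.0 CPM in heterozygous and at 15.5, 14.1 and 15.3 CPM in homozygous libraries at E9.0. The E9.5 libraries held it at 9.88, 9.42 and 8.56 CPM against 11.3, 10.4 and 9.86 CPM. The groups overlapped slightly at both stages, and the average over stages was 0.18 (SE 0.07) on the log2 scale, with an edgeR adjusted p of 0.171. For Bmf the average was -0.12 (SE 0.06, edgeR adjusted p = 0.281). Bok, Bid and Bmf were the 3 members with an unadjusted p under 0.05 in this average (2500 of all 14810 genes had one), none of the 10 passed after adjustment, DESeq2 called 0, and 2.96% of all tested genes passed. Bad and Bcl2l11 differed by 0.14 (SE 0.10) and -0.13 (SE 0.07) at E9.0 and by -0.01 (SE 0.08) and 0.03 (SE 0.07) at E9.5.

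Over the 10 members the median log2 difference was 0.03 in E9.0 and 0.06 in E9.5 libraries, beside medians of -0.0043 and -0.0026 over all tested genes. The median size of the difference regardless of sign was 0.12 at E9.0, against 0.11 over all genes, and 0.08 at E9.5, against 0.09. None of the 10 passed the test of whether the genotype difference itself changed between stages, where 0.0675% of all genes passed, DESeq2 called 0 members and 0 members had an unadjusted p under 0.05, against 1274 of the 14810 genes. The largest such change was that of Bcl2l2 at 0.27 (SE 0.13, edgeR adjusted p = 0.588).

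The p53-responsive relatives give the scale of these differences. Pmaip1, a BH3-only gene whose product neutralises MCL1, was at 3.74, 3.33 and 4.43 CPM in heterozygous and at 10.4, 7.62 and 7.63 CPM in homozygous libraries at E9.0. It rose by 1.14 on the log2 scale (SE 0.16, edgeR adjusted p = 0.00170). Bbc3, which binds all pro-survival members, was at 8.95, 10.03 and 9.37 CPM against 14.3, 11.7 and 17.6 CPM and rose by 0.61 (SE 0.13, edgeR adjusted p = 0.0479). That call is close to the threshold: it was lost in 5 of 10 processing alternatives and in 5 of the 6 runs that each left out 1 E9.0 library, where the edgeR adjusted p ranged from 0.00715 to 0.246. It held only without homozygous replicate 2. Bax, an effector, was higher by 0.32 (SE 0.07, edgeR adjusted p = 0.0625), and the groups did not overlap. It passed in 3 of 10 processing alternatives, with DESeq2 giving the lowest adjusted p (0.00947), and in 0 of the 6 runs that left out a library. At E9.5 the log2 differences were 0.48 (SE 0.15) for Pmaip1, 0.24 (SE 0.12) for Bbc3 and -0.04 (SE 0.07) for Bax, with edgeR adjusted p of 0.138, 0.428 and 0.879. Averaged over both stages, Pmaip1 was higher by 0.81 (edgeR adjusted p = 0.000612) and Bbc3 by 0.43 (edgeR adjusted p = 0.0167). Both calls held in 9 of 9 processing alternatives. With 1 library left out, they held in 12 of 12 runs for Pmaip1 and in 11 of 12 for Bbc3. Bax differed by 0.14 in this average (edgeR adjusted p = 0.163). The change of the genotype difference between stages was not past the threshold for Pmaip1, Bbc3 or Bax (edgeR adjusted p = 0.399, 0.597 and 0.269).

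**Figure D2:**
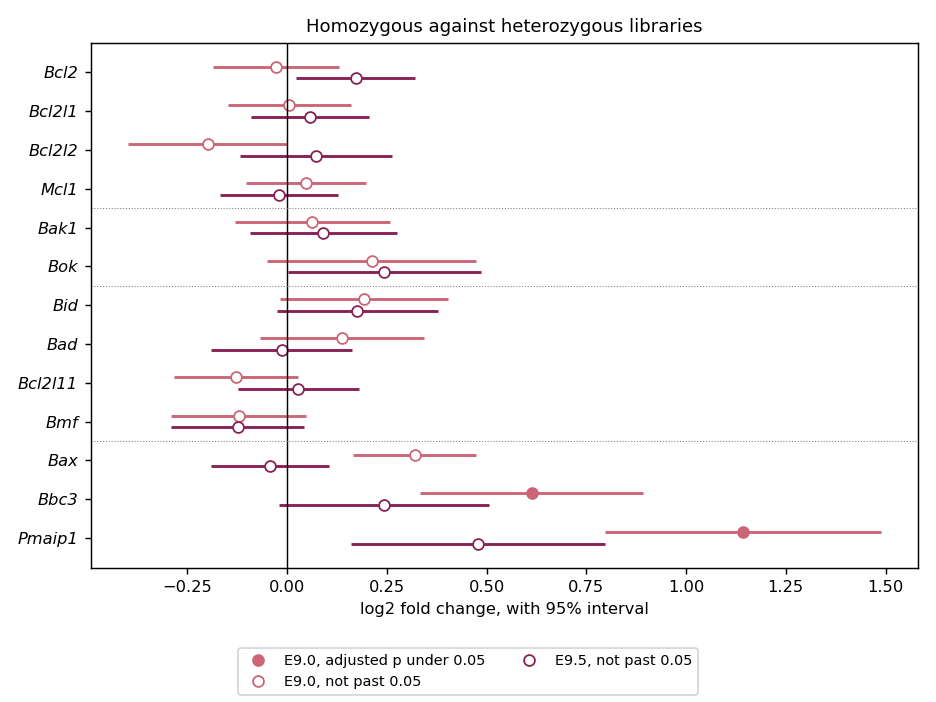
Log2 fold change of homozygous against heterozygous libraries at E9.0 and E9.5, with the 95% interval, for the pro-survival, effector and BH3-only members and, below the lowest dotted line, the p53 targets Bax, Bbc3 and Pmaip1. Filled points passed an edgeR adjusted p of 0.05. No member did, and the filled points are those of Bbc3 (0.61) and Pmaip1 (1.14) at E9.0.

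The second comparison was between stages within each genotype. From E9.0 to E9.5, Bad rose and Bid, Bcl2l11 and Bmf fell in both genotypes, and Bcl2l2 fell in heterozygous embryos. In heterozygous libraries 5 of the 10 members passed edgeR's test, beside 35.2% of all genes, and in homozygous libraries 4 of 10, beside 35.4%. DESeq2 called 5 and 4. In heterozygous libraries 4 members fell, against 16% of all genes that fell, and 1 rose, against 19.2% that rose. In homozygous libraries 3 fell and 1 rose, against 15.8% and 19.6% of all genes. Read against these shares, 5 and 4 of 10 are near the background. The stages did not overlap for 5 members in each genotype, against 47.7% of all genes in heterozygous and 48.2% in homozygous libraries.

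Bad encodes a sensor that survival kinases such as AKT keep phosphorylated and inactive. It was at 9.69, 8.80 and 8.99 CPM at E9.0 and at 13.96, 14.4 and 14.6 CPM at E9.5 in heterozygous libraries. In homozygous libraries it was at 10.3, 9.11 and 10.8 CPM and at 14.2, 14.3 and 14.1 CPM. All E9.5 libraries were above all E9.0 libraries, in either genotype. Bad rose 1.57-fold in heterozygous (log2 0.65, SE 0.09, edgeR adjusted p = 4.43e-05) and 1.41-fold in homozygous libraries (log2 0.50, SE 0.09, edgeR adjusted p = 0.000488). This was the only call among the members that held under every alternative and every left-out library in both genotypes.

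Bmf was at 70.2, 78.0 and 79.1 CPM at E9.0 and at 48.4, 60.7 and 50.5 CPM at E9.5 in heterozygous libraries. In homozygous libraries it was at 70.1, 72.1 and 67.0 CPM and then at 46.3, 50.5 and 49.7 CPM. The stages did not overlap in either genotype. Bmf fell by 29.9% in heterozygous (log2 -0.51, SE 0.08, edgeR adjusted p = 0.000122) and by 30.0% in homozygous libraries (log2 -0.51, SE 0.08, edgeR adjusted p = 0.000126).

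Bcl2l11 encodes BIM, a sensor that engages every pro-survival member and is controlled by growth factor signalling. It was at 56.5, 59.2 and 50.8 CPM and then at 39.5, 38.1 and 42.1 CPM in heterozygous libraries. In homozygous libraries it was at 53.3, 49.7 and 49.2 CPM and then at 39.1, 43.6 and 39.2 CPM. Again no E9.5 library reached the range of the E9.0 libraries of its genotype. Bcl2l11 fell by 28.1% (log2 -0.48, SE 0.07, edgeR adjusted p = 0.000102) in heterozygous and fell by 19.9% (log2 -0.32, SE 0.07, edgeR adjusted p = 0.00282) in homozygous libraries. The difference between these falls was 0.16 (SE 0.10) and was not past the threshold (edgeR adjusted p = 0.704).

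Bid, with the values given above, fell by 29.0% in heterozygous (log2 -0.49, SE 0.10, edgeR adjusted p = 0.000985) and by 29.8% in homozygous libraries (log2 -0.51, SE 0.10, edgeR adjusted p = 0.000730). Bcl2l2 was at 17.7, 18.9 and 19.2 CPM in heterozygous and at 18.1, 19.2 and 21.4 CPM in homozygous libraries at E9.5. In heterozygous libraries it was below all of the E9.0 libraries and fell by 27.5% (log2 -0.46, SE 0.09, edgeR adjusted p = 0.000955). In homozygous libraries the stages overlapped and the difference was -0.19 (SE 0.09, edgeR adjusted p = 0.120). Bcl2 in homozygous libraries did not overlap between stages, at a log2 difference of 0.18 (SE 0.07, edgeR adjusted p = 0.0691). Mcl1, Bcl2l1, Bak1 and Bok differed by -0.11 to 0.13 on the log2 scale between stages, and none passed with TMM scaling.

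The scaling bears on these stage differences, and markers of cell types are given beside them. When libraries were scaled by their total counts alone, the Rn45s share entered the scale, the median of all genes moved to 0.38 in heterozygous and 0.18 in homozygous libraries, and only 3 and 1 members passed. The 3 in heterozygous libraries were Bad and, newly, Bak1 (0.49, edgeR adjusted p = 0.00454) and Bok (0.46, edgeR adjusted p = 0.0205), both close to that shifted median, and the 1 in homozygous libraries was Bad. Under total counts the falls of Bmf, Bcl2l11, Bid and Bcl2l2 kept their sign, at -0.15, -0.10, -0.12 and -0.09 in heterozygous libraries, but lost their calls. In homozygous libraries the calls of Bmf, Bid and Bcl2l11 were lost too, at -0.35, -0.34 and -0.15. Relative to the medians of 0.38 and 0.18 these remain falls. Total counts without Rn45s gave 5 and 5, with Bcl2 newly called in homozygous libraries (edgeR adjusted p = 0.0208). When the library richest in Rn45s, heterozygous E9.0 replicate 1, was left out, 5 members were called in heterozygous embryos. Markers of other cell types also moved with stage. The 11 erythroid markers summed to 554 to 1220 CPM at E9.0 and to 2839 to 5303 CPM at E9.5. Of the 9 tested, 9 were called higher in heterozygous and 8 in homozygous libraries. The adult globin genes Hba-a1 and Hba-a2, near-identical copies, were at 0 in all E9.0 libraries, and at E9.5 Hba-a1 was at 0 in all heterozygous and Hba-a2 in all homozygous libraries. The 6 heart muscle markers summed to 59.4 to 321 CPM at E9.0 and 1872 to 2986 CPM at E9.5, and all 6 rose in both genotypes. The 12 ganglion neuron markers summed to 124 to 134 CPM and then to 204 to 263 CPM. Of the 9 neural crest markers 5 were called lower in each genotype. Of the 12 endothelial markers 6 were called lower in heterozygous libraries, with a median log2 change of -0.43. In homozygous libraries 1 was called lower and 2 higher, with a median of -0.03. The part of these cell types in the members' values was not tested.

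**Figure D3:**
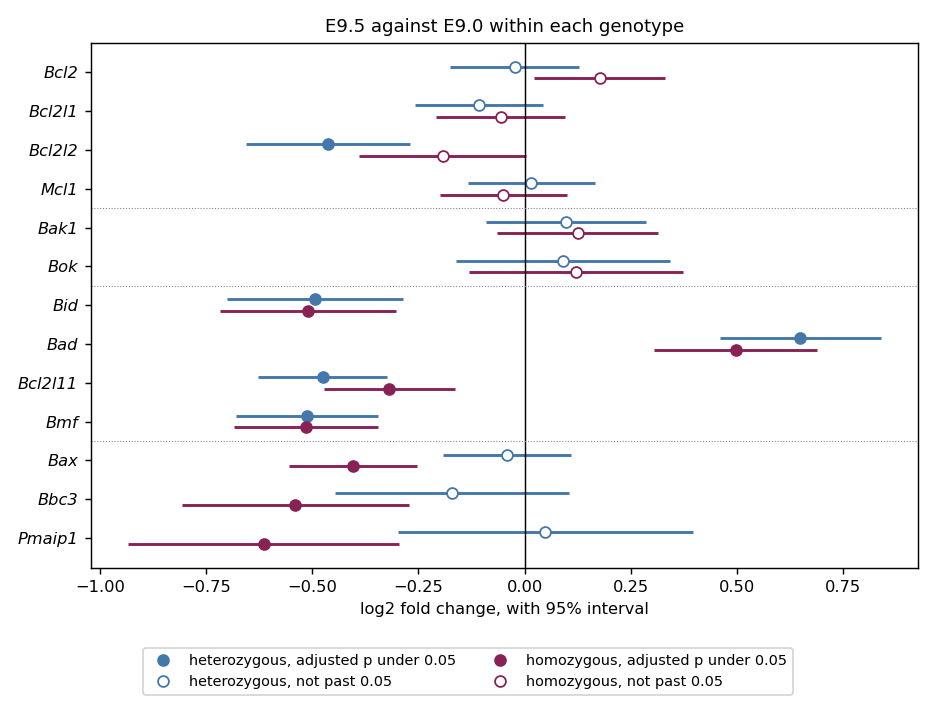
Log2 fold change of E9.5 against E9.0 in heterozygous and in homozygous libraries, with the 95% interval, for the members by role and for Bax, Bbc3 and Pmaip1. Filled points passed an edgeR adjusted p of 0.05. Bad lies to the right (0.65 and 0.50), Bid, Bcl2l11 and Bmf lie to the left in both genotypes, and Bax, Bbc3 and Pmaip1 are filled in homozygous and open in heterozygous libraries.

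The balance between guards and killers was described by summing length-scaled levels by role in each library. The pro-survival sum was 80.3 ± 4.59 CPM per kb (SD, n = 3) in heterozygous and 81.5 ± 3.91 in homozygous libraries at E9.0. At E9.5 it was 78.6 ± 3.09 and 78.8 ± 0.777. All 12 libraries lay between 75.1 and 85.2 CPM per kb, so neither genotype nor stage separated them. The sum of the effectors Bak1 and Bok was 23.7 ± 1.96 and 25.8 ± 2.47 CPM per kb in heterozygous and homozygous libraries at E9.0. At E9.5 it was 25.2 ± 0.949 and 28.1 ± 1.16, and the genotypes did not overlap there (24.5 to 26.3 against 27.0 to 29.3). The BH3-only sum of E9.0 libraries was 28.6 ± 0.441 and 27.8 ± 0.538, and that of E9.5 libraries 23.3 ± 1.15 and 22.9 ± 0.622. Every E9.5 library was below every E9.0 library. Bmf was the largest part of this fall, from a mean of 14.4 to 10.1 CPM per kb in heterozygous and from 13.3 to 9.30 in homozygous libraries. Bad rose instead, from 3.58 to 5.60 and from 3.94 to 5.55. All these sums rest on TMM scaling.

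The ratio of the pro-survival to the pro-apoptotic sum was 1.40, 1.54 and 1.67 in heterozygous and 1.51, 1.68 and 1.39 in homozygous libraries at E9.0. At E9.5 it was 1.70, 1.48 and 1.69 against 1.58, 1.55 and 1.51. The genotypes overlapped at both stages, with means of 1.54 ± 0.139 and 1.53 ± 0.145 at E9.0 and of 1.62 ± 0.128 and 1.55 ± 0.0368 at E9.5 (SD, n = 3). Most of the numerator was Mcl1. Without it the ratio was 0.375, 0.374 and 0.394 in heterozygous and 0.358, 0.357 and 0.359 in homozygous libraries at E9.0, which did not overlap. At E9.5 the ratio without Mcl1 ran from 0.356 to 0.364 and from 0.361 to 0.367, which overlapped. Between stages the ratio without Mcl1 did not overlap in either genotype, and was lower at E9.5 in heterozygous and higher in homozygous libraries. The result between stages thus depends on Mcl1, and also on the division by length. In CPM without that division the ratio was 1.422 to 1.633 at E9.0 and 1.635 to 1.850 at E9.5 in heterozygous libraries, and 1.49 to 1.67 and then 1.73 to 1.80 in homozygous libraries. On that scale the stages did not overlap in either genotype, narrowly so in heterozygous libraries, whereas the length-scaled ratios overlapped. With Bax, Bbc3 and Pmaip1 counted among the pro-apoptotic genes, the ratio was 0.797, 0.891 and 0.929 in heterozygous and 0.776, 0.856 and 0.688 in homozygous libraries at E9.0. The E9.5 means were 0.905 ± 0.0548 and 0.879 ± 0.0101. With these genes counted the genotypes overlapped at both stages. The summed level of these p53 targets alone did not overlap at E9.0, with 38.5 to 40.5 CPM per kb in heterozygous and 48.9 to 57.0 in homozygous libraries. It overlapped at E9.5. Most of this sum was Bax, at a mean of 34.0 of 39.8 CPM per kb in heterozygous and 42.4 of 52.3 in homozygous E9.0 libraries. Bax alone was not past the threshold there (edgeR adjusted p = 0.0625). These sums add transcripts, not proteins, and no test was made of them.

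**Figure D4:**
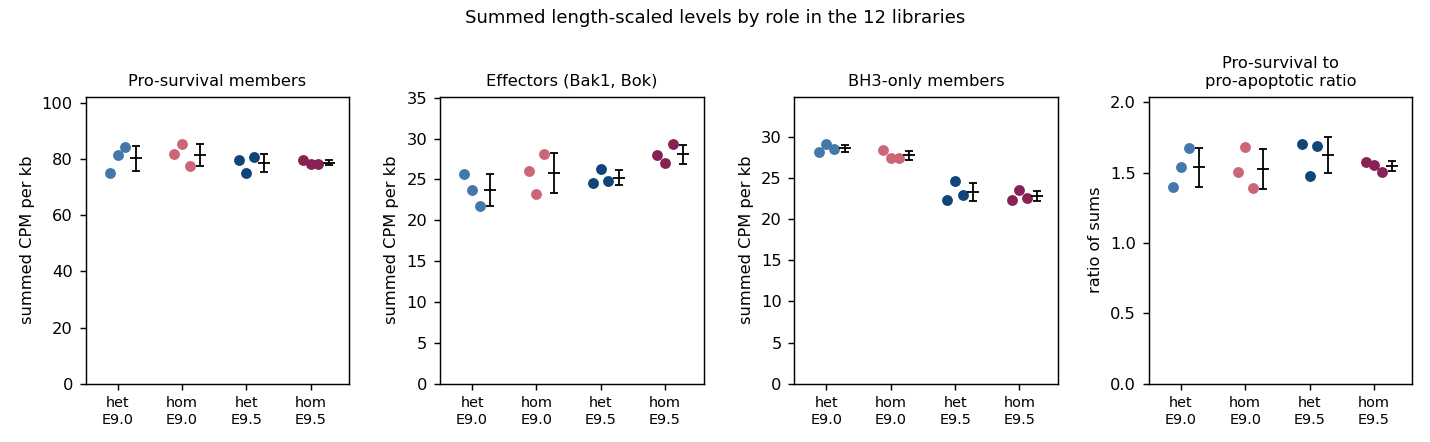
Summed CPM per kb of the pro-survival, effector and BH3-only members, and the ratio of the pro-survival to the pro-apoptotic sum, in each of the 12 libraries (points) with the mean ± SD of 3. All axes are linear from 0. The BH3-only sum is lower in every E9.5 library (22.4 to 24.6 against 27.4 to 29.1), and the ratio overlaps between genotypes at both stages.

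The surrounding pathway was read from 5 lists with 54 further genes, of which 48 were tested. Bcl2a1a, Bcl2a1b, Bcl2a1d, Bcl2l10, Bcl2l15 and Moap1 had at most 12 counts in any library and were left out by the filter. Between genotypes, 2 of the 48 passed at E9.0, namely Bbc3 and Pmaip1, beside 0.587% of all tested genes. At E9.5 0 passed, beside 1.89%. Of the 12 genes of the caspase cascade, which include Apaf1, Cycs and Casp9, none passed at either stage, and none of the 5 inhibitors of apoptosis or of the 21 tested partners and regulators did. Beside these shares of all genes, a count of 0 in lists of this size is near the background. The median log2 difference of the caspase cascade was 0.03 in E9.0 and 0.0012 in E9.5 libraries. The 7 other tested family genes held no call between genotypes at either stage. Their largest difference at E9.0 was that of Bik, at 0.95 (SE 0.27, edgeR adjusted p = 0.146). Bik was scarce, with means of 0.895 CPM in heterozygous and 1.76 CPM in homozygous E9.0 libraries. At E9.5 Bik differed by 0.18 (SE 0.21, edgeR adjusted p = 0.806).

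Between stages 14 of the 48 passed in heterozygous libraries (6 rose and 8 fell) and 15 in homozygous libraries (7 rose and 8 fell), beside the 35.2% and 35.4% of all genes given above, so these counts are not above the background. Ddit3, the stress transcription factor CHOP that is known to activate Bcl2l11, rose by 0.82 (SE 0.16, edgeR adjusted p = 0.000723) in heterozygous libraries. In homozygous libraries it rose by 0.93 (SE 0.16). Foxo1, a forkhead factor that growth factor signalling keeps out of the nucleus, fell by 0.66 on the log2 scale (SE 0.10, edgeR adjusted p = 0.000103) in heterozygous libraries. Under total counts that difference was -0.27 and not called (edgeR adjusted p = 0.104). Bik, a BH3-only gene of the endoplasmic reticulum, rose by 0.92 (SE 0.25, edgeR adjusted p = 0.00941) in heterozygous libraries, from a low mean of 0.895 CPM to 1.70 CPM. In homozygous libraries Foxo1 differed by -0.24 (SE 0.10, edgeR adjusted p = 0.0686) and Bik by 0.15 (SE 0.23, edgeR adjusted p = 0.644). The difference between genotypes in these stage changes was not past the threshold for Foxo1 (edgeR adjusted p = 0.408) or Bik (0.549). In homozygous libraries Pmaip1 fell by 0.61 (SE 0.15, edgeR adjusted p = 0.00458) and Bbc3 fell by 0.54 (SE 0.13, edgeR adjusted p = 0.00344). Both calls were lost under total counts, at -0.44 and -0.36 (edgeR adjusted p = 0.0951 and 0.121). In heterozygous libraries their stage differences were 0.05 (SE 0.16) and -0.17 (SE 0.13), and the tests of the difference between genotypes are those given above, past the threshold for neither.

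Promoters were searched because Bcl2l11 and Bmf fell together, although Bid fell in both genotypes as well. RefSeq promoter windows (250 bases before to 50 after a start, GRCm38.p6) were found for all 10 members, 16 windows in all. The forkhead core GTAAACA, on either strand, stood in 1 of them, a window of Bcl2l11, and in 3.65% of 32851 windows of all genes. The 10-base p53 half-site, on either strand, stood in 1 member window and in 8.36% of all windows. That window belongs to a RefSeq start inside Bmf, downstream of the BH3 exon shown above, and the other Bmf windows held no match. Outside the members, a Bbc3 window held the forkhead core and a Bax window the p53 half-site. The Bcl2l11 stretch is shown on the strand of the gene with the match in capitals.
Bcl2l11 (chr2:128125791-128125837, plus strand, match 227 bases before the start): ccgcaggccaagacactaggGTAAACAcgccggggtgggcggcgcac
A match is a run of letters in a window and shows no binding.

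Some members share exon bases with other annotated genes, and the strand setting of the counting is not given in the sources used here. Bcl2l2 overlaps Gm20521 on the same strand over 594 bases, so its counts are uncertain whatever the setting. On the opposite strand Bcl2 overlaps D630008O14Rik (558 bases), Bak1 overlaps Ggnbp1 (614), Bid overlaps Bcl2l13 (628) and Bad overlaps Gpr137 (524). Bmf, Bcl2l11, Mcl1, Bcl2l1 and Bok have no such overlap. Outside the members, Eftud2 overlaps Gm26668 on the opposite strand (2261 bases) and Bax overlaps Gm45808 on the same strand (192).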

How the data were processed

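RNA was measured by sequencing in 12 libraries, grouped by the titles in the labels. The authors deposited raw counts per gene symbol, with no normalization; the submitters' processing notes name cutadapt, STAR, featureCounts, MultiQC and mm10, without versions. The annotation, strand setting and pooling are not given in the sources used here. Tests used edgeR 4.0.16 in R 4.3.3 (filterByExpr by group, TMM, robust quasi-likelihood F test, a mean per group over all 12 libraries, Benjamini-Hochberg over 14810 genes, two-sided, threshold 0.05), with a common biological variation of 8.77%. SE is the log2 change divided by the root of F. Exact permutation tests on CPM cannot go below 0.1. DESeq2 1.42.0, limma 3.58.1 voom, other scalings, filters and left-out libraries were alternatives. Exon lengths, overlaps and coding sequences came from GENCODE M21. The scripts were tested on simulated data.

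The members, gene lists and alternatives were chosen with earlier results of these data known. Test results of single genes are given for the members, Bax, Bbc3, Pmaip1 and Eftud2. Among pathway genes they are given for those past the threshold between genotypes and for the 3 with the largest change per stage comparison. The gene most alike to each called member is also named. Other genes are named only as examples of a list, for their counts, or for the filter and the overlaps. No 2 libraries of a group agreed within sampling noise (chi-square per degree of freedom at least 10.5).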

Additional observations from a re-analysis of the deposited data

How the results depend on the processing

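Counts of called members between genotypes stayed at 0 in every processing alternative run (10 per stage, 9 for the average and the interaction), and when libraries were left out they ranged from 0 to 1 for the average over stages. Between stages, scaling by total counts gave 3 (heterozygous) and 1 (homozygous) called members. The ratio of pro-survival to pro-apoptotic sums was 0.381, 0.358, 0.361 and 0.364 without Mcl1 (heterozygous and homozygous E9.0, then E9.5), 0.872, 0.773, 0.905 and 0.879 with Bax, Bbc3 and Pmaip1, and, without division by length, 1.52 and 1.57 at E9.0 and 1.77 and 1.76 at E9.5. Signs reversed for changes that were not called, by construction of the scale under total counts: between genotypes at E9.0 Bcl2 (0.16), Bcl2l11 (0.068) and Bmf (0.065); with stage in heterozygous libraries Bcl2 (0.34), Bcl2l1 (0.27), Bax (0.33) and Bbc3 (0.19); in homozygous libraries Bcl2l1 (0.12) and Mcl1 (0.11). Total counts without Rn45s reversed Bcl2 (0.074) and Bax (0.057) in heterozygous, and Bcl2l1 (0.012) and Mcl1 (0.017) in homozygous libraries. With no filter Bcl2l1 at E9.0 was -0.0151, and the cause was not tested. Leaving out 1 library reversed uncalled changes within these ranges: genotype at E9.0 Bcl2 (-0.061 to 0.027), Bcl2l1 (-0.079 to 0.058), Mcl1 (-0.017 to 0.10) and Bak1 (-0.030 to 0.16); genotype at E9.5 Mcl1 (-0.065 to 0.013), Bad (-0.030 to 0.0028), Bcl2l11 (-0.023 to 0.071) and Bax (-0.092 to 0.013); stage in heterozygous Bcl2 (-0.054 to 0.034), Mcl1 (-0.044 to 0.065), Bok (-0.064 to 0.17) and Pmaip1 (-0.048 to 0.18); stage in homozygous Bcl2l1 (-0.11 to 0.028) and Mcl1 (-0.11 to 0.011).

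Same-numbered heterozygous and homozygous libraries deviated together with correlations of 0.109, 0.0307 and 0.0297 at E9.0. At E9.5 the correlations were 0.0455, 0.0309 and 0.0689. Values this low do not settle whether the numbers stand for pairs, and the main model took no pairs. With the replicate number as a block, 0 members were called between genotypes at either stage, in the average or in the interaction, and 5 and 4 between stages in heterozygous and homozygous libraries; Bax at E9.0 passed the threshold and Bbc3 did not. Over all genes the block called 100 genes against 87 at E9.0 and 393 against 280 at E9.5. DESeq2 called 203 and 449, and total counts 78 and 123.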

Other observations

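For each member called between stages, the gene outside the lists with the most similar profile over the 12 libraries (Pearson r of log2 CPM among 11924 genes) was Ptprg for Bcl2l2 (0.948), Parl for Bid (0.975), Mylk3 for Bad (0.986), Edem1 for Bcl2l11 (0.971) and Zc3h11a for Bmf (0.988). Between 48 and 704 genes exceeded an r of 0.9 with 1 member. The libraries differ in stage and share depth and composition between genes, so the values describe the profiles and carry no test.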
